A study of Homo sapiens with 24 samples.

Results

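The genes described here are the human transcription factors of the SOX, GATA, PAX, TBX, LHX, NKX and SIX-type homeobox families. They were taken from the gene count table as the protein-coding rows whose name starts with one of these family names followed by a number, leaving out PAX5, the factor that maintains B cell identity. This gave 74 genes of the 58735 in the table, of which 19951 are protein coding. There were 19 SOX, 6 GATA, 8 PAX, 13 TBX, 8 LHX, 14 NKX and 6 SIX-family genes. The rule used names and no expression value, but it was set with earlier results of these data known.

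RNA was sequenced from SU-DHL-4 and OCI-Ly18, both established cell lines from diffuse large B cell lymphoma that carried green fluorescent protein (GFP). Each line first grew for 72 h with tazemetostat at 500 nM, which blocks the catalytic activity of EZH2, or with its solvent DMSO. CART19 cells, which are chimeric antigen receptor T cells, or UTD cells, a name that the labels do not spell out, were then added for 48 h with the same drug or solvent still present. Viable GFP-positive lymphoma cells were sorted for RNA. Each line thus had 4 groups of 3 libraries, called here TAZ CART19, DMSO CART19, TAZ UTD and DMSO UTD. All 24 libraries came from GFP-positive cells that had been cultured with CART19 or UTD cells, so none shows a line grown alone. Each line stands for 1 tumour, and the drug was given at 1 dose and 1 schedule. The comparisons ask what EZH2 inhibition and CART19 cells change in the lymphoma cells.

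Developmental transcription factors are the textbook targets of Polycomb repressive complex PRC2. Its catalytic subunit EZH2 methylates histone H3 over CpG-rich promoters and so helps keep genes of other lineages silent. SOX proteins bind DNA through an HMG box, GATA proteins through zinc fingers, PAX proteins through a paired domain, TBX proteins through a T-box, and LHX, NKX and SIX-family proteins through homeodomains, which LHX proteins combine with LIM domains. In B cells most of these factors have no known part, and TBX21, which encodes T-bet, is one that B and T cells do use after interferon gamma signals.

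Libraries held 14783781 to 20148891 counts. Summed over 10 B cell markers, levels were 4385 to 5189 counts-per-million (CPM) across SU-DHL-4 libraries and 3750.2 to 4046 CPM across OCI-Ly18 libraries, with all 10 genes detected in each of the 8 groups. EZH2 was lower with tazemetostat in all 4 comparisons, by 0.19 to 0.28 on the log2 scale. Over all tested genes, tazemetostat changed 34.8% with CART19 and 35.5% with UTD cells in SU-DHL-4. In OCI-Ly18 it changed 21.6% with CART19 and 24.3% with UTD cells.

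Most of the 74 genes were silent or nearly so. No library of either line held a count for 28 of them, among them GATA2, PAX3, PAX7, SOX1, SOX11, SOX17, TBX5 and 8 of the 14 NKX genes. A further 9 had between 1 and 10 counts over all 24 libraries. SU-DHL-4 had a count for 34 members and OCI-Ly18 for 40. A mean of at least 0.5 CPM in some group was reached by 14 members in SU-DHL-4 and 22 in OCI-Ly18, 26 in all. At least 5 CPM was reached by 8 genes, among them SOX12, SOX4, SIX4, SOX2, PAX9, LHX4 and PAX8. Per kilobase of exon, the highest group mean was 27.0 CPM for SOX12, 4.19 for SOX4, 4.02 for SOX2 and 3.43 for SIX4. SOX12 and SOX4 belong to the SoxC subgroup, which acts in nervous system and skeletal development, and SOX4 is also needed for early B cell development in mice.

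**Figure D1:**
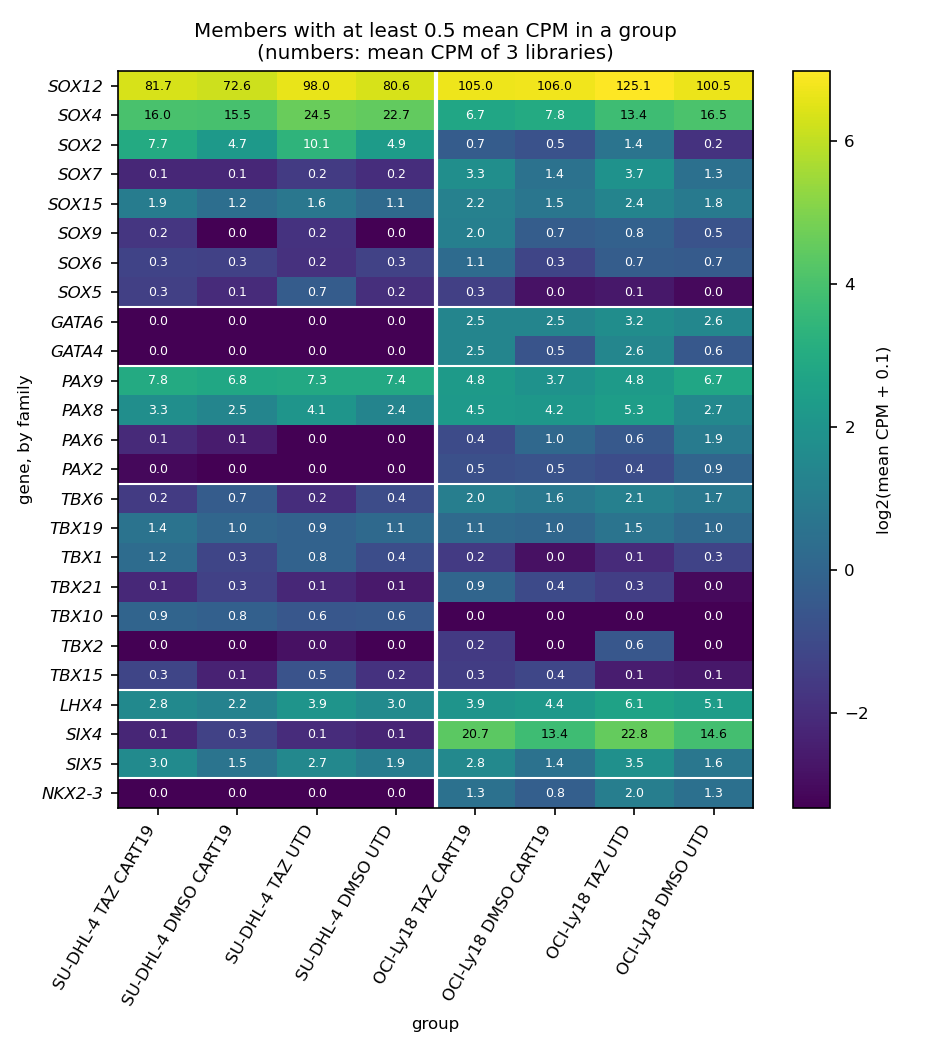
Heat map of mean CPM (3 libraries per group) for the members described here with at least 0.5 CPM in some group. Rows are genes by family, columns are the 8 groups, colour is log2(mean CPM + 0.1) and the number in each cell is the mean CPM. SOX12 is at 72.6 CPM or more in every column, and GATA4, GATA6 and NKX2-3 are at 0 in the 4 SU-DHL-4 columns.

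SOX12 alone made up most of the summed signal. With SOX12 and SOX4 left out, the summed level of the other members in SU-DHL-4 was 30.2 to 35.6 CPM in TAZ CART19 and 20.9 to 25.6 CPM in DMSO CART19 libraries. It was 33.7 to 35.9 CPM in TAZ UTD and 23.4 to 25.8 CPM in DMSO UTD libraries. In OCI-Ly18 the same sum was 62.0 to 71.2 CPM in TAZ CART19 and 49.1 to 50.0 CPM in DMSO CART19 libraries. It was 71.0 to 75.2 CPM in TAZ UTD and 50.8 to 52.3 CPM in DMSO UTD libraries. In each of these 4 pairs every tazemetostat library lay above every DMSO library, and the sums were not tested. The sums include SOX2 in SU-DHL-4 and SIX4 in OCI-Ly18, whose own rise, given below, makes up part of these differences. Members with a count numbered 20 to 27 in TAZ UTD and 16 to 19 in DMSO UTD libraries of SU-DHL-4. In OCI-Ly18 they numbered 33 to 36 in TAZ UTD and 24 to 31 in DMSO UTD libraries. With CART19 cells the ranges touched or overlapped, at 22 to 26 in TAZ and 19 to 22 in DMSO libraries of SU-DHL-4, and at 29 to 33 in TAZ and 28 to 30 in DMSO libraries of OCI-Ly18. Over all genes, those with a count numbered 20985 to 21587 in TAZ UTD and 19522 to 20163 in DMSO UTD libraries of SU-DHL-4. In OCI-Ly18 these were 22582 to 23669 in TAZ UTD and 22170 to 22692 in DMSO UTD libraries. With CART19 cells they were 20915 to 21701 in TAZ and 19991 to 20677 in DMSO libraries of SU-DHL-4. In OCI-Ly18 they were 22031 to 23275 in TAZ CART19 and 22288 to 23129 in DMSO CART19 libraries.

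Counts were high enough for a test of 12 members in SU-DHL-4 and 22 in OCI-Ly18, 25 in all, and the other 49 were tested in neither line. Fold changes below are tazemetostat over DMSO or CART19 over UTD on the log2 scale, with their standard error (SE), and adjusted p-values are from edgeR's quasi-likelihood test with Benjamini-Hochberg adjustment over all genes, called under 0.05. In SU-DHL-4, 2 of 12 members rose with tazemetostat in each setting and 0 fell, against 16.1% of all tested genes higher and 18.7% lower with CART19 and 17.2% higher and 18.3% lower with UTD cells. The split over all genes there depended on scaling, at 2400 higher and 2773 lower with CART19 and 2561 higher and 2721 lower with UTD cells. With upper quartile scaling it was 3106 higher and 1715 lower with CART19 and 3221 higher and 1782 lower with UTD cells, and 3 members rose in each setting. In OCI-Ly18, 5 of 22 members rose and 0 fell with CART19 cells, against 11% of all tested genes higher and 10.6% lower. With UTD cells 6 of 22 rose and 1 fell, against 11.6% higher and 12.7% lower. The median log2 change of the tested members was 0.42 with CART19 and 0.38 with UTD cells in SU-DHL-4, and 0.32 with CART19 and 0.38 with UTD cells in OCI-Ly18. The median of all tested genes lay between 0.00 and 0.02 in the same comparisons. A gene low in most libraries could pass the count filter through the groups where it was high, as SOX2 did in OCI-Ly18. The shares and medians of members and of listed genes given here are therefore descriptions, not tests. In all, 9 members were called with tazemetostat in at least 1 comparison. They were SOX2, SOX7, SOX9, SOX12, GATA4, PAX6, PAX8, SIX4 and SIX5, and PAX6 was the one that fell. In bulk RNA, a change in the share of cells that express a gene and a change in RNA per cell cannot be told apart.

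**Figure D2:**
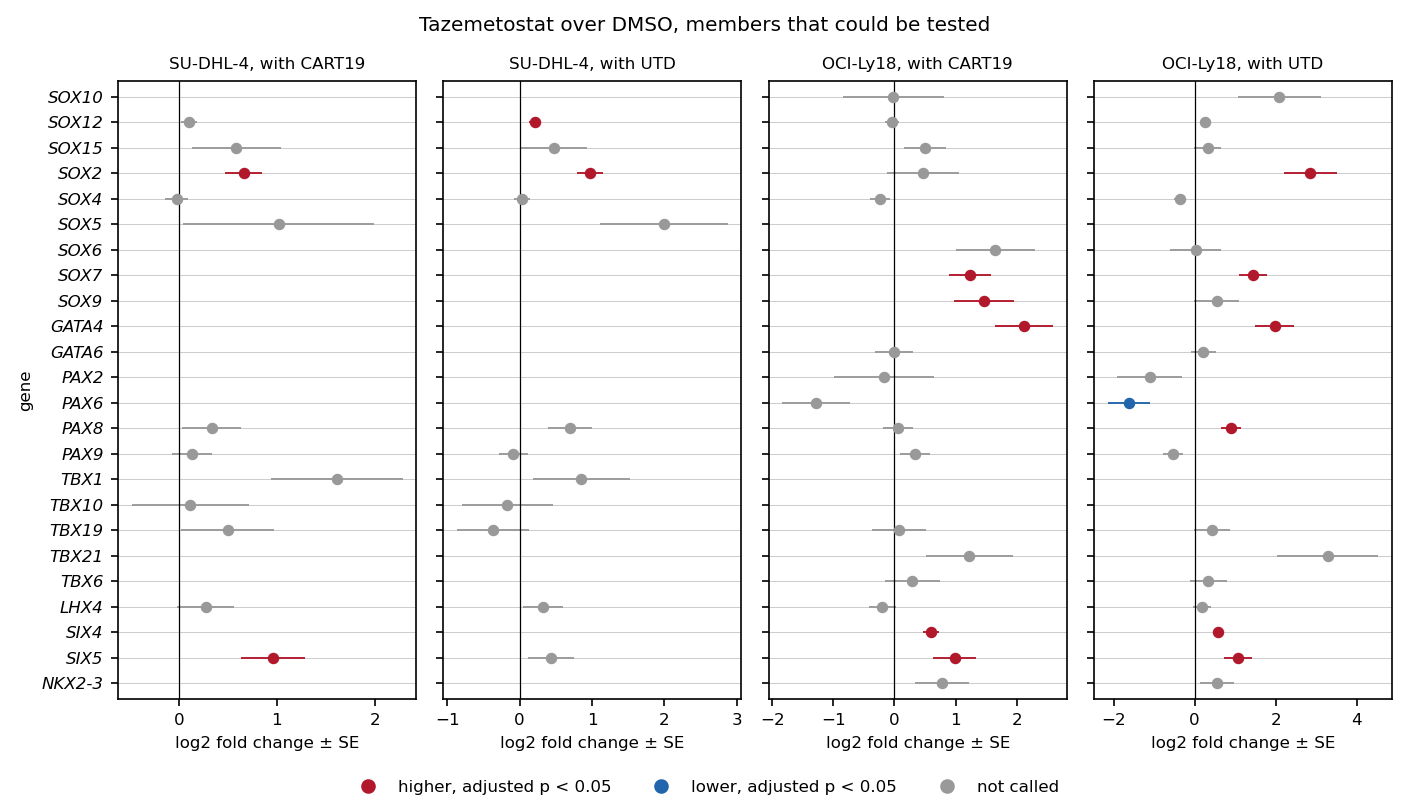
Log2 fold change of tazemetostat over DMSO (points) with its SE (lines) for members that could be tested, in 4 panels by line and added cells; the horizontal scale differs between panels. Red points rose, blue points fell at an adjusted p under 0.05, and grey points were not called. Red points are 2 in each SU-DHL-4 panel, 5 in OCI-Ly18 with CART19 and 6 in OCI-Ly18 with UTD cells.

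SOX2, an HMG-box factor of pluripotent and neural stem cells, was called in 3 of the 4 tazemetostat comparisons, more than any other member except SIX5, which matched it. It lies on chromosome 3 (hg38, 181711924 to 181714436, plus strand) inside the transcribed region of the long noncoding RNA SOX2-OT. The promoter is shown because SOX2 was the member called in both lines with UTD cells. The letters are the 250 bases before and 50 bases from the RefSeq start (GRCh38.p14, chr3:181711675-181711974, plus strand), with the 20 CpG pairs in capitals:
SOX2: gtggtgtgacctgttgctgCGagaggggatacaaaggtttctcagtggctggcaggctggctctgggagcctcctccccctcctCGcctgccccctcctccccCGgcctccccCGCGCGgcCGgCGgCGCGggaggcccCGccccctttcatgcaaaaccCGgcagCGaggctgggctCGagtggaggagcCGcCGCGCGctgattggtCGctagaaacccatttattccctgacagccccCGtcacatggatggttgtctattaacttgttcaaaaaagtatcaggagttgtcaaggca

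In SU-DHL-4, SOX2 had 156, 124 and 106 counts (7.92, 8.05 and 7.17 CPM) in TAZ CART19 libraries, against 78, 87 and 70 counts (5.05, 4.75 and 4.24 CPM) in DMSO CART19 libraries. With UTD cells it had 174, 172 and 156 counts (11.2, 9.74 and 9.43 CPM) in TAZ libraries, against 94, 78 and 70 counts (5.70, 5.14 and 3.87 CPM) in DMSO libraries. Every tazemetostat library was above every DMSO library in both settings. The log2 fold change was 0.66 ± 0.19 (SE, adjusted p = 0.00474) with CART19 and 0.97 ± 0.18 (adjusted p = 3.62e-05) with UTD cells. OCI-Ly18 held little SOX2 RNA under DMSO. It had 21, 31 and 20 counts in TAZ UTD libraries, against 1, 2 and 6 counts in DMSO UTD libraries, a log2 fold change of 2.86 ± 0.65 (adjusted p = 0.00125). With CART19 cells it had 9, 13 and 16 counts in TAZ libraries, against 10, 8 and 8 counts in DMSO libraries, and these overlapped. That change was 0.46 ± 0.59 and was not called (adjusted p = 0.636). The highest OCI-Ly18 group mean of SOX2, 1.45 CPM in TAZ UTD, was below the lowest SU-DHL-4 group mean of 4.68 CPM.

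SOX2-OT could be tested in SU-DHL-4 and also rose with tazemetostat there. Its mean was 3.58 CPM in TAZ CART19, 1.53 CPM in DMSO CART19, 3.99 CPM in TAZ UTD and 2.19 CPM in DMSO UTD libraries. The log2 fold changes were 1.15 ± 0.32 (adjusted p = 0.00362) with CART19 and 0.80 ± 0.31 (adjusted p = 0.0370) with UTD cells. In OCI-Ly18 it had 3 to 8 counts per group and was not tested. SOX2 and SOX2-OT lie on the same strand, and no exon bases shared between them were found. Whether reads of unspliced SOX2-OT RNA are in the SOX2 counts was not tested.

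SIX4, a homeodomain factor of muscle and sensory organ development, had the most counts of the members that rose in OCI-Ly18. It lies on chromosome 14 (hg38, 60709528 to 60724348, minus strand). Its promoter is shown for comparison with that of SOX2, since both genes rose with UTD cells and tazemetostat in OCI-Ly18 (GRCh38.p14, chr14:60724302-60724601, minus strand, 14 CpG pairs in capitals):
SIX4: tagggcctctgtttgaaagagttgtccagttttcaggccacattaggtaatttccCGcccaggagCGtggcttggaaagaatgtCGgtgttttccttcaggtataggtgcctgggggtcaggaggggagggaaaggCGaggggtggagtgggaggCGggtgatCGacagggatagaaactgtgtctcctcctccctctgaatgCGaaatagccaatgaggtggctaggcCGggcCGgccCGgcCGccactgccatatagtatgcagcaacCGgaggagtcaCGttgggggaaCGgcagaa

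SIX4 stood at 19, 21.3 and 21.7 CPM in TAZ CART19 libraries of OCI-Ly18, against 14, 12.2 and 14 CPM in DMSO CART19 libraries. With UTD cells it stood at 22.2, 25.5 and 20.6 CPM in TAZ libraries, against 11.7, 16.8 and 15.4 CPM in DMSO libraries. The groups did not overlap in either setting. The log2 fold change was 0.60 ± 0.13 (adjusted p = 0.000808) with CART19 and 0.58 ± 0.13 (adjusted p = 0.000970) with UTD cells. In SU-DHL-4 SIX4 had at most 7 counts in any library and was not tested in that line.

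SIX5, a homeodomain factor encoded beside the myotonic dystrophy gene DMPK, was at low levels in both lines. In SU-DHL-4 with CART19 cells it had 69, 34 and 47 counts in TAZ libraries, against 24, 23 and 26 counts in DMSO libraries, a log2 fold change of 0.96 ± 0.33 (adjusted p = 0.0177). In OCI-Ly18 with CART19 cells it had 35, 48 and 66 counts in TAZ libraries, against 30, 16 and 25 counts in DMSO libraries (0.99 ± 0.35, adjusted p = 0.0417). With UTD cells OCI-Ly18 had 67, 41 and 66 counts in TAZ libraries, against 27, 18 and 32 counts in DMSO libraries (1.07 ± 0.34, adjusted p = 0.0213). None of these pairs of groups overlapped as CPM. In SU-DHL-4 with UTD cells the counts were 42, 45 and 45 in TAZ and 34, 33 and 25 in DMSO libraries, and the change was not called. These calls depended on single libraries and, in OCI-Ly18 with CART19 cells, on the fit. In SU-DHL-4 the gene no longer passed when TAZ CART19 replicate 1 was left out (adjusted p = 0.0916), nor without TAZ CART19 replicate 3 (0.0525) or DMSO CART19 replicate 2 (0.0753). In OCI-Ly18 with CART19 cells it was lost without TAZ CART19 replicates 2 (0.0633) or 3 (0.241) or DMSO CART19 replicates 2 (0.191) or 3 (0.0756), with limma voom (0.0797), without a filter (0.0540) and in a fit of the compared groups alone (0.0646). Among UTD groups it was lost without TAZ UTD replicates 1 (0.104) or 3 (0.0652) or DMSO UTD replicate 2 (0.102). SIX5 shares 56.81% of its exon bases with AC074212.1, which had 75 counts over all libraries against 918 for SIX5.

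**Figure D3:**
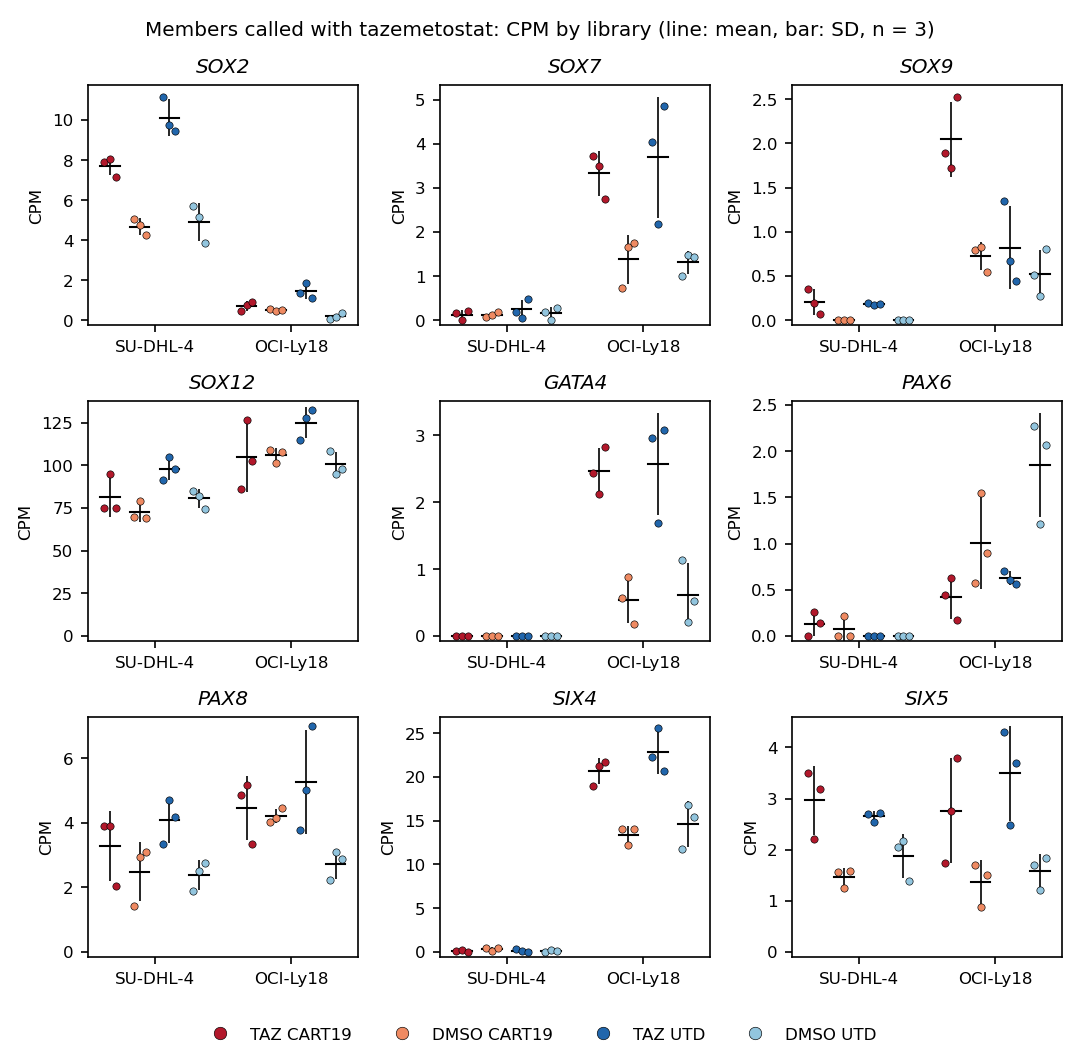
CPM in each library (points), group mean (horizontal line) and SD (vertical bar, n = 3) of members called with tazemetostat, with TAZ groups to the left of DMSO groups for each kind of added cell and line. In OCI-Ly18, GATA4 lies between 1.69 and 3.08 CPM in the 6 tazemetostat libraries and between 0.18 and 1.14 CPM in the 6 DMSO libraries.

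GATA4, a zinc finger factor of heart and gut endoderm, rose in OCI-Ly18 in both settings. It had 49, 37 and 49 counts in TAZ CART19 libraries, against 10, 16 and 3 counts in DMSO CART19 libraries. In the UTD setting it had 46, 28 and 55 counts in TAZ libraries, against 18, 3 and 9 counts in DMSO libraries. All 6 tazemetostat libraries were above all 6 DMSO libraries. The log2 fold change was 2.12 ± 0.48 (adjusted p = 0.00136) with CART19 and 1.98 ± 0.48 (adjusted p = 0.00228) with UTD cells. SU-DHL-4 had 0 counts of GATA4 in all 12 libraries. GATA6, its close relative in endoderm and heart, stood at 2.49 ± 1.07 CPM in TAZ CART19 and 2.47 ± 0.46 CPM in DMSO CART19 libraries of OCI-Ly18, and at 3.20 ± 0.165 CPM in TAZ UTD and 2.63 ± 0.86 CPM in DMSO UTD libraries (SD, n = 3). Its change was called in neither setting (-0.01 ± 0.31 and 0.22 ± 0.31). GATA3, the T helper 2 factor, had 1 count in 1 library.

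SOX7, a SoxF factor of endothelium and early endoderm, was the other member on chromosome 8 that rose with tazemetostat in OCI-Ly18. It had 75, 61 and 48 counts in TAZ CART19 libraries, against 13, 30 and 29 counts in DMSO CART19 libraries. With UTD cells it had 63, 36 and 87 counts in TAZ libraries, against 16, 22 and 25 counts in DMSO libraries. The groups did not overlap in either setting. The log2 fold change was 1.24 ± 0.34 (adjusted p = 0.00835) with CART19 and 1.44 ± 0.35 (adjusted p = 0.00248) with UTD cells, and the first was lost without DMSO CART19 replicate 1 (adjusted p = 0.0776). SOX7 shares 39.43% of its exon bases with a gene entry named PINX1 on the same strand. That entry had 2 counts over all libraries against 537 for SOX7, and how reads in the shared bases were assigned was not tested. SOX7 (hg38, chromosome 8, 10723768 to 10730512) and GATA4 (11676959 to 11760002) are 946446 bases apart. From SOX7 to GATA4 the table lists 34 genes, 9 of them protein coding, and 14 could be tested in OCI-Ly18. With CART19 cells 3 of the 14 rose, SOX7 and GATA4 among them, 2 fell and 9 were not called. Over all tested genes 11% were higher and 10.6% lower in that comparison. With UTD cells SOX7 and GATA4 were the 2 that rose, 2 fell and 10 were not called. The shares of all tested genes there were 11.6% higher and 12.7% lower. The 2 that fell in both settings were the B cell kinase gene BLK, with changes of -0.32 with CART19 and -0.26 with UTD cells, and FAM167A, with -1.16 and -1.11. These genes were looked at because of where they lie, after the values of SOX7 and GATA4 had been seen. SOX7 and GATA4 set the bounds and are in these counts, so the counts cannot be read against the shares of all tested genes.

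SOX9, the SoxE factor of cartilage and testis, rose in OCI-Ly18 with CART19 cells. It had 38, 30 and 44 counts in TAZ CART19 libraries, against 14, 15 and 9 counts in DMSO CART19 libraries, with no overlap (1.46 ± 0.49, adjusted p = 0.0308). In the UTD setting it had 21, 11 and 8 counts in TAZ libraries, against 8, 4 and 14 counts in DMSO libraries, which overlapped and were not called (0.54 ± 0.55). The CART19 call was lost in a fit of all 24 libraries (adjusted p = 0.0783) and without TAZ CART19 replicates 1 (0.0517) or 3 (0.121) or DMSO CART19 replicates 1 (0.0699), 2 (0.0569) or 3 (0.117). In SU-DHL-4, SOX9 had 7, 3 and 1 counts in TAZ CART19 libraries and 3, 3 and 3 counts in TAZ UTD libraries, against 0 in all 6 DMSO libraries. These counts were too few for a test in the fit of that line, although the fit of all 24 libraries called SOX9 higher in both settings. They make SOX9 at least 3.70-fold higher with CART19 cells when DMSO is set at 3 counts over the group.

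PAX8, a paired-domain factor of thyroid and kidney, rose in OCI-Ly18 with UTD cells. It stood at 3.78, 5.02 and 6.99 CPM in TAZ UTD libraries, against 2.21, 3.09 and 2.87 CPM in DMSO UTD libraries, with no overlap (0.90 ± 0.25, adjusted p = 0.00882). With CART19 cells it stood at 4.86, 5.17 and 3.33 CPM in TAZ libraries, against 4.04, 4.14 and 4.45 CPM in DMSO libraries, which overlapped (0.06 ± 0.24, adjusted p = 0.901). The UTD change no longer passed when TAZ UTD replicate 3 (adjusted p = 0.118) or DMSO UTD replicate 1 (0.0579) was left out. In SU-DHL-4 the change was 0.70 ± 0.30 with UTD cells and was not called (adjusted p = 0.0648), but it was called with upper quartile scaling and in a fit of the compared groups alone. PAX8-AS1, with which PAX8 shares 9.26% of its exon bases, was not called in OCI-Ly18 but was higher with tazemetostat in SU-DHL-4, by 0.26 ± 0.10 with CART19 and 0.31 ± 0.10 with UTD cells.

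PAX6, the paired-domain factor of eye and brain, went the other way. It had 11, 10 and 10 counts in TAZ UTD libraries of OCI-Ly18, against 36, 18 and 36 counts in DMSO UTD libraries, with no overlap (-1.63 ± 0.52, adjusted p = 0.0208). With CART19 cells it had 9, 11 and 3 counts in TAZ libraries, against 10, 28 and 15 counts in DMSO libraries, and the change was not called (-1.28 ± 0.56, adjusted p = 0.101). The UTD call was lost in a fit of all 24 libraries (adjusted p = 0.0937) and without TAZ UTD replicates 2 (0.0563) or 3 (0.0737) or DMSO UTD replicates 1 (0.0837) or 3 (0.0712). PAX6 shares 25.18% of its exon bases with ELP4, which had 8313 counts over all libraries and whose own change with UTD cells was -0.27 ± 0.12 (adjusted p = 0.107). The part of ELP4 reads in the PAX6 counts was not tested.

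SOX12 had far more counts than any other member, and the smallest change among those called with tazemetostat. In SU-DHL-4 with UTD cells it stood at 91.5, 105 and 97.6 CPM in TAZ libraries, against 85.2, 82.0 and 74.5 CPM in DMSO libraries, with no overlap (0.21 ± 0.08, adjusted p = 0.0343). With CART19 cells the change was 0.10 ± 0.08 and was not called. In OCI-Ly18 it was -0.04 ± 0.11 with CART19 and 0.26 ± 0.11 with UTD cells, neither of them called by edgeR. The change with UTD cells was called higher with DESeq2, without a filter, in a fit of the compared groups alone, and without TAZ CART19 replicate 1 or 2. Without TAZ CART19 replicate 2 the OCI-Ly18 change with CART19 cells was called lower. The SU-DHL-4 call was lost in a fit of all 24 libraries (adjusted p = 0.135) and without TAZ UTD replicates 2 (0.171) or 3 (0.0769), DMSO UTD replicate 3 (0.193) or DMSO CART19 replicate 1 (0.0576).

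Among members too low for a test, TBX2, a T-box repressor of heart and limb development, had 5, 8 and 0 counts in TAZ CART19 libraries of OCI-Ly18 and 18, 4 and 7 counts in TAZ UTD libraries, against 0 in all 6 DMSO libraries. With DMSO set at 3 counts over the group, this makes it at least 4.12-fold higher with CART19 and at least 9.31-fold higher with UTD cells. LHX6, a LIM-homeodomain factor of cortical interneurons, had 17, 4 and 4 counts in TAZ CART19 libraries against 0 in DMSO CART19 libraries of OCI-Ly18, at least 7.93-fold higher. Beside UTD cells it had 0, 1 and 7 counts in TAZ libraries and 2, 5 and 2 in DMSO libraries, so this difference was seen in 1 setting. NKX3-2, a homeobox factor of skeleton and spleen, went in the other direction, with 0 counts in TAZ CART19 and 17 in DMSO CART19 libraries of OCI-Ly18, at least 5.95-fold lower. With UTD cells NKX3-2 had 9 counts in TAZ and 8 in DMSO libraries, a ratio of 1.08 with a 95% counting interval of 0.371 to 3.23. In a fit without a filter on low counts, edgeR called TBX2 higher with UTD cells, and LHX6 higher and NKX3-2 lower with CART19 cells. These 3 genes were picked after their values were seen.

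Further transcription factors of development, such as homeobox, forkhead and POU genes, were taken as a list of 102 genes outside the 7 families. In OCI-Ly18, 5 of 27 tested rose with CART19 and 6 of 27 with UTD cells, and 0 fell, beside 11% and 11.6% of all tested genes higher. In SU-DHL-4, 3 of 11 rose with CART19 and 2 of 11 with UTD cells, and 0 fell, beside 16.1% and 17.2% of all tested genes higher. The median log2 change of the tested genes was 0.59 with CART19 and 0.41 with UTD cells in SU-DHL-4, and 0.23 with CART19 and 0.32 with UTD cells in OCI-Ly18. TFAP2B, a neural crest factor, stood at 2.28 ± 0.75 CPM in TAZ UTD and 0.10 ± 0.04 CPM in DMSO UTD libraries of OCI-Ly18 (SD, n = 3), a log2 fold change of 4.31 ± 0.71 (adjusted p = 3.27e-05). DLX3, a homeobox factor of placenta and skin, stood at 5.59 ± 1.15 CPM in TAZ UTD and 1.75 ± 0.24 CPM in DMSO UTD libraries (1.62 ± 0.26, adjusted p = 1.57e-05). FOXC1, a forkhead factor of eye and vessel development, rose in SU-DHL-4 by 0.88 ± 0.34 with CART19 and 1.25 ± 0.36 with UTD cells. MNX1, a motor neuron and pancreas homeobox factor, rose in 3 of the 4 comparisons, by 1.15 ± 0.41 in SU-DHL-4 with CART19 cells, and in OCI-Ly18 by 0.93 ± 0.25 with CART19 and 0.73 ± 0.24 with UTD cells. The homeobox gene PITX1 was called higher in all 4 comparisons, the only gene of the list to be so.

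Of 20 cofactors of these families (LMO, LDB, EYA, DACH, TLE, FOG and PAXIP1 genes), 9 were tested in SU-DHL-4 and 11 in OCI-Ly18. In SU-DHL-4, LMO2, TLE3 and TLE4 rose with both CART19 and UTD cells, PAXIP1 fell with both, and EYA2 fell with CART19 cells. LMO2, a LIM-only bridge between GATA and other factors and a germinal centre B cell marker, stood at 284 ± 8.71 CPM in TAZ CART19 and 213 ± 8.76 CPM in DMSO CART19 libraries, and at 211 ± 7.06 CPM in TAZ UTD and 144 ± 5.85 CPM in DMSO UTD libraries (SD, n = 3). In OCI-Ly18 only LMO4 of the 11 was called. It rose by 0.60 ± 0.07 in each setting, to 78.4 ± 2.68 CPM in TAZ CART19 against 50.9 ± 3.59 CPM in DMSO CART19 libraries. Of the 13 PRC2 genes, 3 rose and 9 fell with CART19 and 3 rose and 6 fell with UTD cells in SU-DHL-4, where 16.1% to 17.2% of all tested genes rose and 18.3% to 18.7% fell. In OCI-Ly18, 3 rose and 3 fell with CART19 and 3 rose and 5 fell with UTD cells, where 11% to 11.6% of all tested genes rose and 10.6% to 12.7% fell. EZH1, the second PRC2 methyltransferase, and EPOP rose in all 4 comparisons.

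Promoter sequences were at hand in RefSeq for 49 of the 74 members. Their CpG pairs in 300 bases numbered 2 to 54, with a median of 21, against a median of 22 over 14919 coding genes. At least 10 CpG pairs were found in 87.76% of the members' promoters and in 73.73% of all coding promoters. These are descriptions, and no difference was tested.

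With CART19 cells, 5 members were called in at least 1 of 4 comparisons. In SU-DHL-4, 0 of 12 rose and 2 fell under tazemetostat, against 6.66% of all tested genes higher and 7.86% lower, and 0 rose and 1 fell under DMSO, against 4.62% and 3.18%. In OCI-Ly18, 1 of 22 rose and 1 fell under tazemetostat, against 8.33% higher and 5.05% lower, and 2 rose and 2 fell under DMSO, against 6.27% and 4.75%. Under tazemetostat in OCI-Ly18 the split over all genes was 1372 higher and 832 lower, and 1053 higher and 1175 lower with upper quartile scaling, with the same 1 member in each direction. Those called included SOX4, SOX12, PAX9 and TBX21, and SOX12 was the one also called with tazemetostat.

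SOX4 fell with CART19 cells in all 4 comparisons, and no other member was called in all 4. It lies on chromosome 6 (hg38, 21592768 to 21598619, plus strand). Its RefSeq promoter window lies inside these bounds, whereas the windows of SOX2 and SIX4 span the listed start of the gene. The CpG pairs are therefore not counted at like positions. The SOX4 promoter is shown because it had fewer CpG pairs than that of SOX2 or SIX4 (GRCh38.p14, chr6:21593501-21593800, plus strand, 8 CpG pairs in capitals):
SOX4: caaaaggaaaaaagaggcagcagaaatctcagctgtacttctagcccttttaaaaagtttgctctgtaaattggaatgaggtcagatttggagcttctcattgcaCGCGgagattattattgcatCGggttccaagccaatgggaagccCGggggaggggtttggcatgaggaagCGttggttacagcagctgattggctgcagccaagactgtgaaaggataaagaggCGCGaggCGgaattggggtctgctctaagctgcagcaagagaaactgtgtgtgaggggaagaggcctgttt

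In SU-DHL-4, SOX4 stood at 15.4, 15.5 and 17 CPM in TAZ CART19 libraries, against 25.9, 22.9 and 24.7 CPM in TAZ UTD libraries. Under DMSO it stood at 15.5, 16.5 and 14.5 CPM in CART19 libraries, against 24.3, 22.6 and 21.2 CPM in UTD libraries. In OCI-Ly18 it stood at 6.50, 6.54 and 7.01 CPM in TAZ CART19 libraries, against 13.7, 11.7 and 15 CPM in TAZ UTD libraries. The groups did not overlap in these comparisons, nor in OCI-Ly18 under DMSO, with 6.77, 8.18 and 8.42 CPM in CART19 libraries and 17.2, 13.4 and 18.8 CPM in UTD libraries. The log2 fold change was -0.60 ± 0.11 (adjusted p = 7.48e-05) under tazemetostat and -0.55 ± 0.11 (adjusted p = 0.000496) under DMSO in SU-DHL-4. It was -0.95 ± 0.16 (adjusted p = 4.55e-05) under tazemetostat and -1.06 ± 0.16 (adjusted p = 6.91e-06) under DMSO in OCI-Ly18. Tazemetostat itself was not called for SOX4 by edgeR in any of the 4 comparisons, with log2 fold changes from -0.35 ± 0.15 (adjusted p = 0.0835, OCI-Ly18 with UTD cells) to 0.03 ± 0.11. The OCI-Ly18 change with UTD cells was called lower in a fit of all 24 libraries and without DMSO UTD replicate 2.

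**Figure D4:**
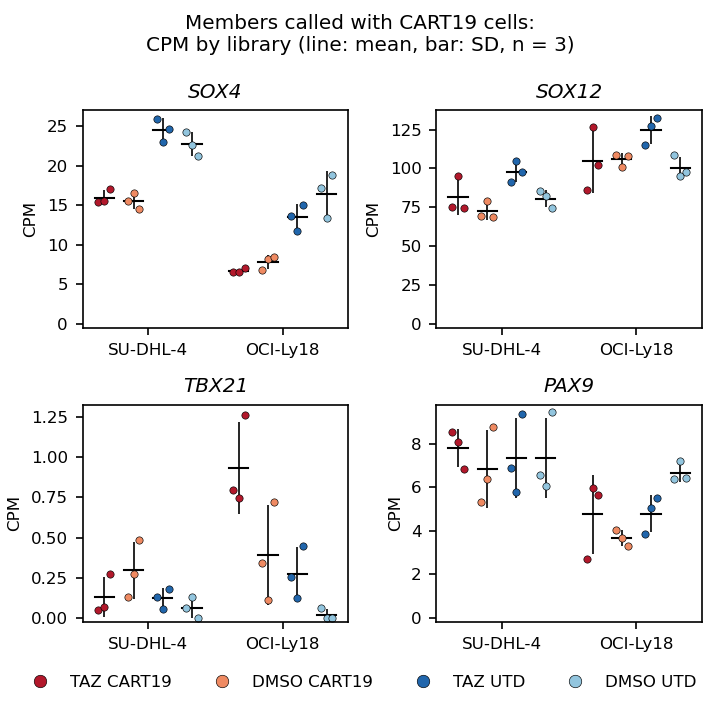
CPM in each library (points), group mean (horizontal line) and SD (vertical bar, n = 3) of members called with CART19 cells, with CART19 groups to the left of UTD groups for each drug setting and line. SOX4 lies between 6.50 and 8.42 CPM in the 6 CART19 libraries of OCI-Ly18 and between 11.7 and 18.8 CPM in the 6 UTD libraries.

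TBX21, the T-box factor T-bet, had 16, 13 and 22 counts in TAZ CART19 libraries of OCI-Ly18, against 4, 2 and 8 counts in TAZ UTD libraries. Under DMSO it had 6, 2 and 12 counts in CART19 libraries, against 1, 0 and 0 counts in UTD libraries. The CART19 libraries lay above the UTD libraries in both settings, with a call under DMSO (3.84 ± 1.20, adjusted p = 0.0329) and none under tazemetostat (1.78 ± 0.74, adjusted p = 0.112). Because DMSO UTD held 1 count in all, the fitted size is uncertain, and the ratio of summed counts per total was 18.4 with a 95% counting interval of 2.94 to 763. The call was lost with limma voom (adjusted p = 0.0743) and without DMSO CART19 replicates 1 (0.0697) or 3 (0.218) or DMSO UTD replicates 2 (0.139) or 3 (0.149). DESeq2 gave no adjusted p for it, and TBX21 was not tested under the stricter filter or in a fit of the compared groups alone. Tazemetostat with UTD cells gave 14 counts over 3 libraries against 1 with DMSO, a ratio of 13.5 with an interval of 2.05 to 570, which was not called (adjusted p = 0.0537). That change was called with DESeq2 (adjusted p = 0.0472) and without TAZ UTD replicate 2 (0.0464) or DMSO UTD replicate 1 (0.0476). In SU-DHL-4, TBX21 had 2, 5 and 8 counts in DMSO CART19 and 1, 2 and 0 counts in DMSO UTD libraries, a ratio of 4.95 with an interval of 1.40 to 26.7, and 6 counts in each of the 2 tazemetostat groups.

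TBX21 is also expressed by T cells, so T cell markers were read in the same libraries. The 19 markers summed to 27.3 to 27.5 CPM in TAZ CART19, 42.8 to 45.2 CPM in DMSO CART19, 29.3 to 31.3 CPM in TAZ UTD and 43.9 to 44.6 CPM in DMSO UTD libraries of SU-DHL-4. In OCI-Ly18 they summed to 199 to 208 CPM in TAZ CART19, 157 to 173 CPM in DMSO CART19, 337 to 353 CPM in TAZ UTD and 257 to 271 CPM in DMSO UTD libraries, most of it from IL7R, TRBC2 and TRAC. A count was found for 13, 10, 12 and 6 of the 19 markers in these groups of SU-DHL-4, and for 14, 12, 7 and 9 in OCI-Ly18. CD7 and GZMA were at 0 in all 24 libraries, CD3D had at most 3 counts, CD2 at most 3 and CD3G at most 7. Other markers were present throughout 1 line, with CD3E at 25 to 75 counts in every SU-DHL-4 library, and CD8A at 9 to 27 and PRF1 at 21 to 52 counts in every OCI-Ly18 library. With CART19 cells IFNG was called higher in both lines and both drug settings, and GZMB was called higher in SU-DHL-4 but not in OCI-Ly18. Other markers were called lower. These were IL7R in OCI-Ly18 under DMSO, IL7R, TRBC2 and TRAC there under tazemetostat, and TRAC in SU-DHL-4 under tazemetostat. IFNG had 15 to 34 counts in TAZ CART19 and 11 to 18 in DMSO CART19 libraries of OCI-Ly18, against 0 in all 6 UTD libraries. GZMB had 0 to 10 and 4 to 11 counts in the same CART19 groups and 0 with UTD cells. The part of these T cell transcripts in the TBX21 counts was not tested. The promoter of TBX21 is shown as that of the T-box member that was called with CART19 cells (GRCh38.p14, chr17:47732986-47733285, plus strand, 23 CpG pairs in capitals):
TBX21: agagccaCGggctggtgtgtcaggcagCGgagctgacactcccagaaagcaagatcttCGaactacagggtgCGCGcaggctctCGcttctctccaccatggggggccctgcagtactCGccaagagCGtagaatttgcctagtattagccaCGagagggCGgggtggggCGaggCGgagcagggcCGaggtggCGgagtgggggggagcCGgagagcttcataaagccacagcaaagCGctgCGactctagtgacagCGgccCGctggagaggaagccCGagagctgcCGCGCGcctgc

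Both strands of the 49 promoters were searched for TTCNNNGAA, the spacing bound by STAT factors. It was found in 4 members and in 7.0% of all coding promoters. The TBX21 and SOX4 windows held no match.

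PAX9, a paired-domain factor of teeth, thymus and palate, fell with CART19 cells in OCI-Ly18 under DMSO. It stood at 4.04, 3.65 and 3.31 CPM in CART19 libraries, against 6.39, 7.19 and 6.42 CPM in UTD libraries, with no overlap (-0.83 ± 0.24, adjusted p = 0.0214). Under tazemetostat it stood at 2.68, 5.97 and 5.63 CPM in CART19 libraries, against 3.85, 5.02 and 5.48 CPM in UTD libraries, which overlapped (0.04 ± 0.24, adjusted p = 0.939). The DMSO call was lost without DMSO CART19 replicates 2 (0.0612) or 3 (0.0996) or DMSO UTD replicates 2 (0.0913) or 3 (0.0514). PAX9 in SU-DHL-4, at 6.82 to 7.80 CPM as group means, was called in no comparison within that line.

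SOX12 was lower with CART19 cells in SU-DHL-4 under tazemetostat. It stood at 75.1, 95.2 and 74.8 CPM in CART19 libraries, against 91.5, 105 and 97.6 CPM in UTD libraries (-0.25 ± 0.08, adjusted p = 0.0253), and 1 CART19 library lay within the UTD range. The call was lost in a fit of all 24 libraries (adjusted p = 0.174), in a fit of the compared groups alone (0.0663), and without TAZ CART19 replicates 1 (0.155) or 3 (0.181), TAZ UTD replicates 2 (0.180) or 3 (0.0871) or DMSO CART19 replicate 1 (0.0545).

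**Figure D5:**
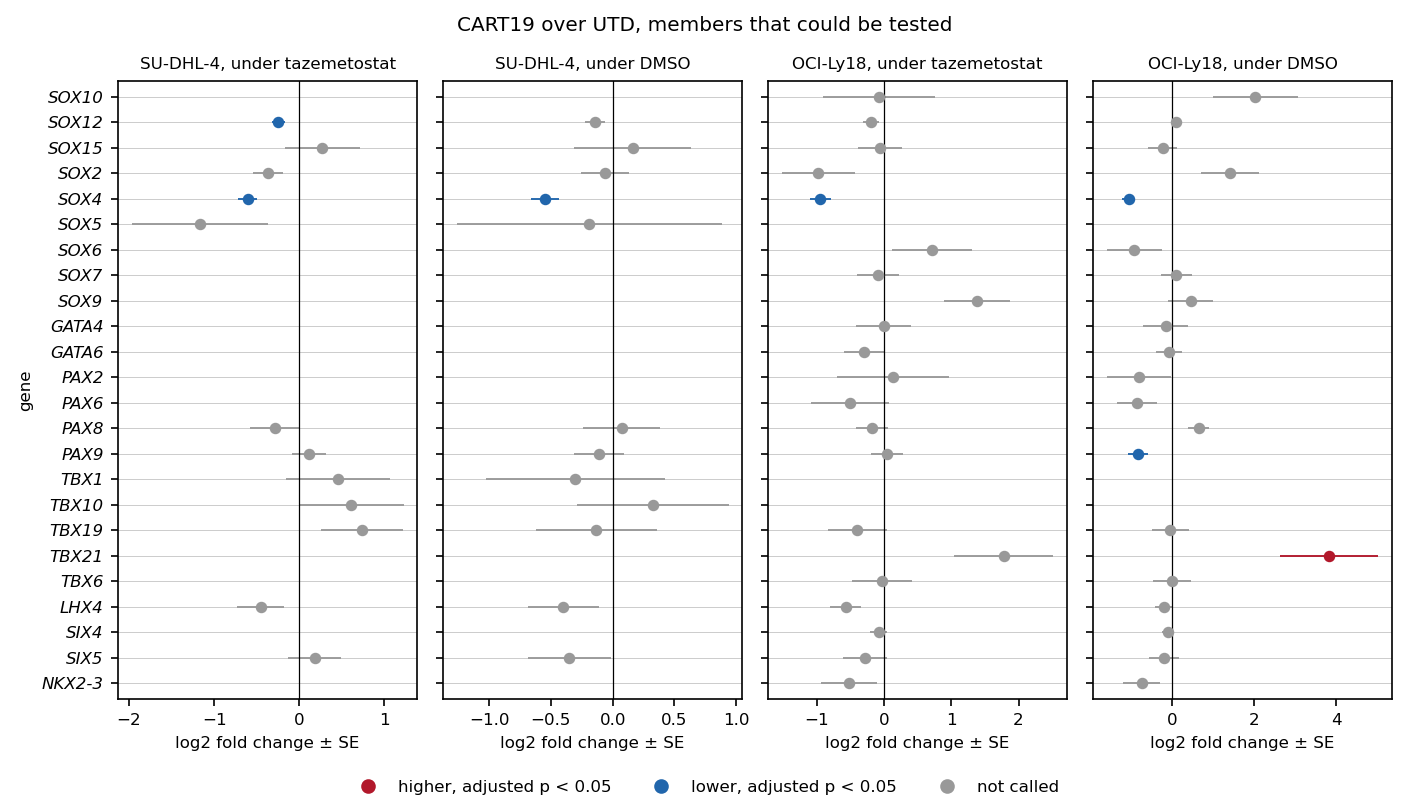
Log2 fold change of CART19 over UTD (points) with its SE (lines) for members that could be tested, in 4 panels by line and drug; the horizontal scale differs between panels. SOX4 is blue (lower, adjusted p under 0.05) in all 4 panels, and TBX21 is red (higher) in OCI-Ly18 under DMSO.

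Of the 102 other developmental factors, PITX1, a hindlimb and pituitary homeobox factor, fell with CART19 cells in SU-DHL-4, by 0.21 ± 0.05 on the log2 scale under tazemetostat and by 0.34 ± 0.05 under DMSO. It was the 1 of 11 tested genes called there in each setting. Over all tested genes, 6.66% were higher and 7.86% lower under tazemetostat, and 4.62% higher and 3.18% lower under DMSO. In OCI-Ly18, POU4F1 and TFAP2B fell under tazemetostat, and POU4F1 and ZIC2 fell and DLX1 rose under DMSO, of 27 tested. The shares of all tested genes were 8.33% higher and 5.05% lower under tazemetostat, and 6.27% higher and 4.75% lower under DMSO.

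The interaction, the change of the tazemetostat effect between CART19 and UTD cells, was called by edgeR for 0 members in either line, against 0.895% of all genes in SU-DHL-4 and 0.419% in OCI-Ly18. DESeq2 also called 0 members in both lines. At an unadjusted p under 0.05, edgeR gave 0 members in SU-DHL-4 and 3 in OCI-Ly18, which were SOX2 (-2.40 ± 0.89, adjusted p = 0.203), PAX9 (0.88 ± 0.34, adjusted p = 0.232) and PAX8 (-0.84 ± 0.35, adjusted p = 0.273). That SOX2 and PAX8 were called with UTD cells and not with CART19 cells in OCI-Ly18 is therefore not shown to be a difference between the 2 settings. Leaving out TAZ CART19 replicate 2 of OCI-Ly18 gave 982 interaction genes over all genes, against 69 with all libraries, and 1 member called.

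The lines differed in which members they expressed. In DMSO UTD libraries, 3 of 25 members tested jointly were higher and 11 lower in SU-DHL-4 than in OCI-Ly18, against 29% higher and 35.9% lower of all tested genes. Upper quartile scaling moved the median of all genes from -0.10 to -0.24 in this comparison and added SOX12 to the members that were lower. SOX2 was higher in SU-DHL-4, at 4.90 ± 0.94 CPM against 0.18 ± 0.15 CPM in OCI-Ly18 (4.75 ± 0.38, adjusted p = 5.34e-15), and SOX4 at 22.7 ± 1.54 CPM against 16.5 ± 2.80 CPM (0.55 ± 0.13, adjusted p = 0.000155). TBX10, a T-box gene, had 13, 5 and 14 counts in SU-DHL-4 and 0 in OCI-Ly18, at least 10.3-fold higher. SIX4 was lower in SU-DHL-4, at 0.11 ± 0.14 CPM against 14.6 ± 2.63 CPM in OCI-Ly18. LHX4, a LIM-homeodomain factor of pituitary and motor neurons, stood at 2.97 ± 0.63 CPM in SU-DHL-4 and 5.12 ± 0.57 CPM in OCI-Ly18 (-0.69 ± 0.25, adjusted p = 0.0126). Its call was lost without DMSO UTD replicate 1 of SU-DHL-4 (adjusted p = 0.0881) or of OCI-Ly18 (0.0531), and that of TBX6, lower by a log2 of -1.85, without DMSO UTD replicate 2 of OCI-Ly18 (0.10).

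Of the 11 members lower in SU-DHL-4, 7 had 0 counts in its DMSO UTD libraries. With 3 counts over that group as the limit, or 0.0603 CPM, SU-DHL-4 was lower by at least 43.8-fold for GATA6, 31.0-fold for PAX6, 21.4-fold for NKX2-3, 15.5-fold for PAX2, 10.3-fold for GATA4 and 8.96-fold for SOX9. Whether these loci are intact in SU-DHL-4 cannot be read from RNA. LHX4 shares 30.79% of its exon bases with ACBD6, which had 16250 counts over all libraries, and the part of its reads in the LHX4 counts was not tested.

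The log2 size of the tazemetostat change itself differed between the lines for 1 member, SOX2 with UTD cells. In CPM SOX2 rose more in SU-DHL-4, from 3.87 to 5.70 in DMSO to 9.43 to 11.2 in TAZ libraries. In OCI-Ly18 it went from 0.06 to 0.34 in DMSO to 1.12 to 1.88 in TAZ libraries. On the log2 scale the change was smaller in SU-DHL-4 than in OCI-Ly18, by -1.85 ± 0.52 (adjusted p = 0.0142). In that test 10.6% of all genes were called. The call was lost with limma voom (adjusted p = 0.0534) and without DMSO UTD replicates 1 (0.0922) or 2 (0.0515) of OCI-Ly18, the group with 1, 2 and 6 counts. With CART19 cells edgeR called 0 members between the lines, against 10.1% of all genes, 4 members had an unadjusted p under 0.05, and DESeq2 called 1, SIX4.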

How the data were processed

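Per the labels' protocols, NEBNext Ultra II chemistry was used on RNA of sorted viable GFP-positive cells, giving 3 libraries per group and 24 in all. The authors deposited whole-number counts per gene and library, not normalised. The submitters' processing notes name hg38 and DESeq2. Which aligner and counter were used, and whether strand was considered, is not given in the sources used here. All 58735 gene IDs have the same start and end in GENCODE release 29. The 27 names that read as dates were restored from their gene IDs, and 0 rows named no gene. CPM is the counts-per-million value of a library, without length or TMM correction. Nothing says that replicates came from separate cultures, so p-values measure the spread between these libraries. Replicate pairs differed more than copies would (chi-square over degrees of freedom 2.77 to 14.8, 24 pairs).

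Counts were tested in R 4.3.3 with edgeR 4.0.16 (TMM, filterByExpr by group, robust quasi-likelihood F-test), each line alone (12 libraries, 16467 genes tested in OCI-Ly18 and 14861 in SU-DHL-4) and the lines' differences in one fit of 24 libraries (17766 genes). P-values were adjusted by Benjamini-Hochberg over all tested genes and called under 0.05. The scripts were tested on simulated data. Alternatives were DESeq2 1.42.0, limma 3.58.1 voom, upper quartile and RLE scaling, a stricter filter and none, other sets of libraries, a replicate block and leaving out each replicate. A count of 0 was set at 3 counts over the group for fold limits, and 95% intervals of count ratios cover counting error only. Genes described singly were those called with a mean of at least 0.5 CPM in a group, those with at least 5 CPM, and per list up to 4 called genes, and exceptions are marked. Members and gene lists were chosen with earlier results of these data known. A T-bet-associated list of 5 genes had FCRL5 higher with tazemetostat in SU-DHL-4 and IFNG higher with CART19 cells in both lines. Promoters and their coordinates are from RefSeq (GRCh38.p14). Some genes are counted in the totals but not reported here by name.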

Additional observations from a re-analysis of the deposited data

Results flagged for a closer look

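The tazemetostat change of SOX2 with UTD cells differed between the lines by -1.851 on the log2 scale, SU-DHL-4 minus OCI-Ly18 (SE 0.52, edgeR adjusted p = 0.0142), and this test of the difference is why it is listed. SOX2 had 174, 172 and 156 counts in TAZ UTD and 94, 78 and 70 counts in DMSO UTD libraries of SU-DHL-4. In OCI-Ly18 it had 21, 31 and 20 counts in TAZ UTD and 1, 2 and 6 counts in DMSO UTD libraries. All tazemetostat libraries were above all DMSO libraries in each line. Leaving out DMSO UTD replicate 1 of OCI-Ly18 gave -1.45 (adjusted p = 0.0922), leaving out its replicate 2 gave -1.73 (adjusted p = 0.0515), and limma voom gave -1.90 (adjusted p = 0.0534). With CART19 cells the difference was 0.23 ± 0.48 and was not called.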

How the results depend on the processing

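Of 1086 alternative values for 44 gene results, 1019 kept direction and call, 64 lost the call, 3 gained it and 0 reversed. SIX4, GATA4 and SOX2 with tazemetostat (SOX2 with CART19 cells in SU-DHL-4 alone), SOX7 with UTD cells, and SOX4 with CART19 cells kept their calls in all alternatives that tested them, and SOX2 in OCI-Ly18 was not tested under the stricter filter. Counts of members moved as follows, and causes were not tested. OCI-Ly18, tazemetostat: with UTD 8 higher with DESeq2 and without a filter, 7 in the fit of the compared groups and 5 under the stricter filter, with CART19 4 higher in the fit of all 24 libraries, in that of the compared groups and under the stricter filter, 0 lower with UTD under the stricter filter, and 1 lower with CART19 without a filter. OCI-Ly18, CART19 cells under DMSO: 1 higher in the fit of all 24 libraries, in that of the compared groups alone, with DESeq2, with voom and under the stricter filter. OCI-Ly18, CART19 cells under tazemetostat: 0 higher in the fit of all 24 libraries and of the compared groups, 2 with DESeq2 and with voom, and 2 lower in the fit of all 24. SU-DHL-4, CART19 cells under tazemetostat: 1 lower in both of those fits. Between the lines, 5 were lower in SU-DHL-4 under the stricter filter, 0 differed in the tazemetostat change with UTD cells under voom, and 1 with CART19 cells under DESeq2. Interaction genes over all genes, 133 in SU-DHL-4 and 69 in OCI-Ly18, became 63 and 126 in the fit of all 24 libraries and 242 and 238 with DESeq2, and 306 in OCI-Ly18 without a filter. Leaving out one library at a time gave the following ranges. In SU-DHL-4, members higher with tazemetostat were 1 to 3 with CART19 and 1 to 2 with UTD cells, members lower with CART19 cells under tazemetostat 1 to 2, interaction genes 37 to 414, and genes called with CART19 cells under DMSO 820.0 to 1438. In OCI-Ly18, members with tazemetostat were 3 to 5 higher and 0 to 1 lower with CART19 and 4 to 7 higher and 0 to 2 lower with UTD cells. With CART19 cells they were 0 to 2 higher and 1 to 3 lower under tazemetostat and 0 to 2 higher and 1 to 2 lower under DMSO, and genes called under DMSO were 1187 to 2159. Interaction in OCI-Ly18 gave 0 to 1 members and 15 to 982 genes, and each line difference in the tazemetostat change gave 0 to 1 members. Same-numbered libraries deviated with correlations of -0.055 to 0.044 over 24 pairs, so no pairing by replicate number was seen. Such correlations cannot show whether libraries were paired by culture or day. A replicate block left 25 interaction genes in OCI-Ly18 and changed no count of members. At 14783781 to 20148891 counts per library, 49 members were too low for a test, and a 0 over 3 DMSO UTD libraries of SU-DHL-4 allows up to 0.0603 CPM.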
